A study of Homo sapiens with 6 samples.

Results

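The 10 genes described here serve double-stranded RNA sensing and were measured across 2 groups of TYK-nu cells, an ovarian cancer line. They were picked by symbol for their known roles in this pathway, with earlier results of these data known, and all 10 of 10 were found among 62260 gene rows and passed the filter that left 14166 genes for testing. One group was wild type (WT) and the other a ZNFX1 knockout (ZNFX1 KO), with 3 libraries each; both were cultured untreated, and the labels place every library in batch 1. The labels name no second knockout clone and do not say how the gene was disrupted, so loss of ZNFX1 and any further difference of the KO cells cannot be told apart. ZNFX1 itself encodes a helicase-like zinc finger protein of antiviral RNA sensing that has been placed at mitochondria together with MAVS. The sample titles call the libraries biological replicates. Where nothing says that these came from separate cultures, p-values measure only the spread between these libraries. In bulk RNA, fewer cells that express a gene and less RNA per cell cannot be told apart.

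RIG-I (gene RIGI) and MDA5 (IFIH1) are cytosolic helicases that bind viral or misplaced cellular double-stranded RNA and pass the signal through their caspase recruitment domains to MAVS, an adaptor on the outer mitochondrial membrane. LGP2 (DHX58) has the helicase but no such domain and tunes the other two. TLR3 reads double-stranded RNA inside endosomes and signals through the separate adaptor TICAM1 (TRIF). Both routes activate the kinase TBK1 and the transcription factor IRF3, which switch on interferon genes, and interferon in turn raises the amounts of several of the sensors in many cell types. TRIM25 and RNF135 (Riplet) are ubiquitin ligases that promote RIG-I signalling, RNF125 is a ubiquitin ligase that marks the sensors for degradation, ZCCHC3 is an RNA-binding cofactor of RIG-I and MDA5, and NLRX1 is a mitochondrial protein described as a restraint on MAVS.

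Known interferon response elements were looked for in the promoters, because the sensors are compared below with interferon-stimulated genes. RefSeq promoter windows (GRCh38.p14, 250 bases before to 50 after the gene start) were found for 7 of the 10 genes. DHX58, RNF135 and ZCCHC3 had no window matched by symbol and were not searched. The interferon-stimulated response element was searched as GAAANNGAAA and its reverse complement TTTCNNTTTC, and IFIH1 and TLR3 were the only 2 of these 7 with a match. Of all 35116 windows, 3.57% held one. The windows of these 2 genes are shown up to 10 bases after the gene start, 5′ to 3′ on the gene's strand, with the matches in capitals. The IFIH1 window lies at chr2:162318675-162318934 (minus strand) and the TLR3 window at chr4:186068906-186069165 (plus strand).
IFIH1: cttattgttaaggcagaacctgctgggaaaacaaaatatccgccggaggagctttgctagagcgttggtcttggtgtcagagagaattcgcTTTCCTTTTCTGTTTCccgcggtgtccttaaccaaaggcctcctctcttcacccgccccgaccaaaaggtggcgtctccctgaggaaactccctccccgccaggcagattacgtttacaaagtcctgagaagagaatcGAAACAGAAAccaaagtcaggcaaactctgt
TLR3: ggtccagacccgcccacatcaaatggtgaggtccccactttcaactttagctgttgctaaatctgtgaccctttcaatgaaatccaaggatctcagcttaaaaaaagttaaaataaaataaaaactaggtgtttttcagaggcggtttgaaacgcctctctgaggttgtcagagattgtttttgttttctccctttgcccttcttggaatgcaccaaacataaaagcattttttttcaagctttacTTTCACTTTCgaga
IFIH1 held 3 matches, at positions -159 to -150, -153 to -144 and -21 to -12 relative to the start, of which the first 2 overlap each other. The match of TLR3 spanned the start, from -4 to 6. The gamma-activated site, searched as TTCNNNGAA, which reads the same on both strands, was matched at 2 places in the TLR3 window and in no other of the 7 windows, against 7.66% of all windows. A match is a stretch of letters and was not tested for factor binding, and the absence of one concerns only these windows.

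The libraries held 21413002 to 23494771 assigned fragments, of which 19115530 to 21036063 fell on gene rows. ZNFX1 mRNA stood at 129.7, 208 and 109 CPM (read counts scaled to library size by the TMM method) in WT 1, 2 and 3 and at 103, 70.5 and 75.1 CPM in ZNFX1 KO 1, 2 and 3. The KO libraries were all below the WT libraries, as in 10.8% of all tested genes. ZNFX1 did not pass the threshold (log2 fold change -0.85, SE 0.27, adjusted p = 0.218 by edgeR, and -0.53 without WT 2). Its mRNA therefore does not settle whether the knockout labels hold. WT 2 stood apart in interferon-stimulated genes. The median of 25 tested genes of this kind, relative to the mean of the 6 libraries, was 1.56 in WT 2 on the log2 scale and between -0.60 and 0.11 in the other 5 libraries. Of 10 markers of ovarian and epithelial tumour cells 4 passed the filter and 0 were called by edgeR; those named here were chosen after their values were seen. The 4 tested markers had log2 fold changes from -1.36 to 0.55. In 1 of the 4 every KO library was lower than every WT library and in 1 higher, against 10.8% and 9.39% of all tested genes. KRT18 (log2 fold change 0.55) and KRT8 (-0.73) lay in opposite directions, and the marker gene WT1 was at 0.15. EPCAM had 31.0, 33.8 and 5.30 reads in WT and 0 in each KO library. MUC16 was at 0 in all libraries, and PAX8 and CDH1 had at most 1.25 reads. The summed level of the 10 markers was 129 to 142 CPM in WT and 139 to 214 CPM in KO, most of it KRT18. The part of these markers in the results was not tested. The 9 leukocyte markers summed to 4.79 to 7.13 CPM in WT and 4.61 to 9.65 CPM in KO, with PTPRC, the common leukocyte antigen, at 0 in all libraries. Of these 9, 2 passed the filter and 0 were called by edgeR. LYZ stood at 0.438 to 2.82 CPM in WT and 2.93 to 8.15 CPM in KO (log2 fold change 1.70, SE 0.66, adjusted p = 0.293 by edgeR). CLEC9A stood at 2.36 to 6.05 CPM in WT and 1.11 to 2.63 CPM in KO (-1.28, SE 0.45, adjusted p = 0.259 by edgeR).

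By edgeR's quasi-likelihood test, 0 of the 10 genes reached an adjusted p under 0.05, against 0.727% of all tested genes (0.459% lower and 0.268% higher in KO). At an unadjusted p under 0.05 there were 5, against 15.1% of all tested genes. The DESeq2 Wald test called 2 of them (TLR3 and ZCCHC3), against 3.91% of 15257 genes with an adjusted p, and limma-voom called 0, against 0.536%. Without a filter on low counts edgeR called 2 (IFIH1 and TLR3), against 2.11%, and without WT 3 it called 4 (IFIH1, TLR3, NLRX1 and ZCCHC3), against 9.02%. In 5 of the 10 genes the 3 KO libraries did not overlap with the 3 WT libraries, against 20.2% of tested genes: IFIH1, TLR3, RNF125 and NLRX1 were lower in every KO library and ZCCHC3 was higher in every KO library. Over all tested genes, 10.8% were lower and 9.39% were higher in this sense. The log2 fold change was negative in 8 of the 10 genes (median -0.60), against 51.2% of all tested genes (median -0.01). WT 2 held the highest level in 6 of the 10 genes, as it did in 27.5% of all tested genes.

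**Figure D1:**
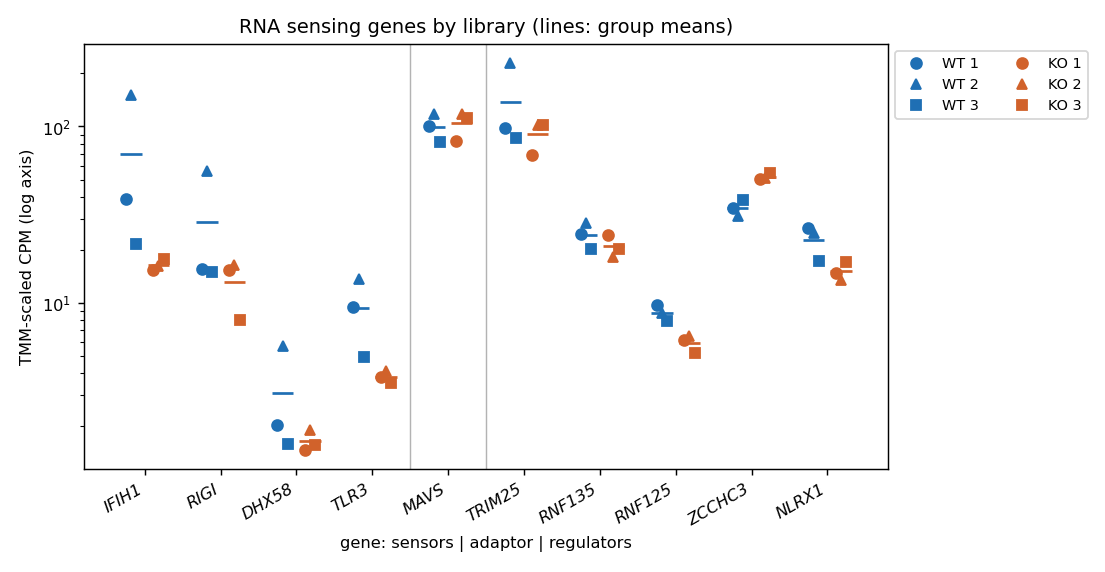
Level of each gene in every library as TMM-scaled CPM on a log axis, with WT libraries in blue, ZNFX1 KO libraries in orange, a marker shape for each replicate number and lines at the group means (n = 3). WT 2 stands far above the other libraries for IFIH1, RIGI, DHX58 and TRIM25, while the KO libraries lie apart from all WT libraries for IFIH1, TLR3, RNF125, NLRX1 and ZCCHC3.

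With all 6 libraries IFIH1 had the log2 fold change farthest from 0 among the 4 sensors, and without WT 2 it was TLR3 (-0.92, against -0.88 for IFIH1). IFIH1 (ENSG00000115267.10, chromosome 2, 162267079 to 162318703, minus strand in GENCODE 29, GRCh38), which encodes MDA5, stood at 38.9, 149.8 and 21.5 CPM in WT 1, 2 and 3 and at 15.3, 16.1 and 17.7 CPM in ZNFX1 KO 1, 2 and 3. The groups did not overlap, and the WT libraries differed 6.97-fold among themselves while the KO libraries differed 1.15-fold. IFIH1 averaged 70.1 ± 69.6 CPM in WT against 16.4 ± 1.20 CPM in KO (SD, n = 3 each). Its fold change on the log2 scale was -2.10 (SE 0.62; adjusted p = 0.190 by edgeR). WT 2 was 3.85 times the next highest library, and without WT 2 the log2 fold change was -0.88 (SE 0.26; adjusted p = 0.312 by edgeR), with a WT mean of 30.2 CPM. IFIH1 remained lower in each KO library than in WT 1 or WT 3. It was called without WT 3 and without a filter on low counts, and the adjusted p ranged from 0.00481 to 0.510 over 18 alternatives.

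RIGI (ENSG00000107201.11, chromosome 9, 32455705 to 32526324, minus strand), which encodes RIG-I, stood at 15.5, 55.9 and 14.9 CPM in the WT libraries and at 15.3, 16.3 and 7.95 CPM in the KO libraries. The groups overlapped: WT 2 was high, KO 3 was low, and the other 4 libraries lay within 14.9 and 16.3 CPM. The log2 fold change of -1.13 (SE 0.53; adjusted p = 0.354 by edgeR) became -0.20 (SE 0.31) without WT 2. DHX58 (ENSG00000108771.13, chromosome 17, 42101404 to 42112733, minus strand), which encodes LGP2, had few reads, 34.6 to 112 in WT and at most 37.7 in KO. Its levels were 2.03, 5.68 and 1.58 CPM in WT and 1.47, 1.90 and 1.56 CPM in KO. Here too WT 2 alone was high and the groups overlapped (log2 fold change -0.91, SE 0.50; adjusted p = 0.416 by edgeR; without WT 2, -0.14, SE 0.39). DHX58 is also the gene with the smallest share of fragments on its gene row, 68.7%, and 7 of its transcripts are listed separately.

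TLR3 (ENSG00000164342.14, chromosome 4, 186069152 to 186088069, plus strand), the endosomal sensor, stood at 9.53, 13.6 and 4.93 CPM in WT and at 3.78, 4.10 and 3.53 CPM in KO. Every KO library was below every WT library, with the KO libraries within 1.16-fold of each other and the WT libraries spread over 2.76-fold. The means were 9.36 ± 4.35 and 3.80 ± 0.287 CPM (SD, n = 3 each). For TLR3 the log2 fold change was -1.30 (SE 0.36; adjusted p = 0.168 by edgeR), and -0.92 (SE 0.33; adjusted p = 0.430 by edgeR) without WT 2. TLR3 was the sensor least tied to WT 2, which was 1.43 times the next highest library. It was called in 3 of 18 alternatives (the DESeq2 Wald test, no filter on low counts, and without WT 3), with adjusted p from 0.0181 to 0.503.

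The length that Salmon assigned to TLR3 also differed between the groups. The effective length of its gene row, an average over transcripts weighted by their abundance, was 4464, 3056 and 4938 bases in WT 1, 2 and 3 and 5848, 5851 and 5516 bases in the KO libraries. All KO values were longer than all WT values, and WT 2, with the most TLR3 fragments, had the shortest. GENCODE 29 has 2 basic protein-coding transcripts of TLR3, one of 6015 and one of 2310 bases. Because TPM divides by this length, TPM differed more than CPM. TLR3 was at 1.24, 2.62 and 0.751 TPM in WT and 0.384, 0.510 and 0.407 TPM in KO, which puts the KO group at 28.2% of WT by TPM and at 40.6% by CPM. With an effective length offset the log2 fold change was -1.91 (edgeR adjusted p = 0.144). These lengths rest on 67.7 to 269 fragments in a library, and whether the transcripts were truly used differently was not tested.

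**Figure D2:**
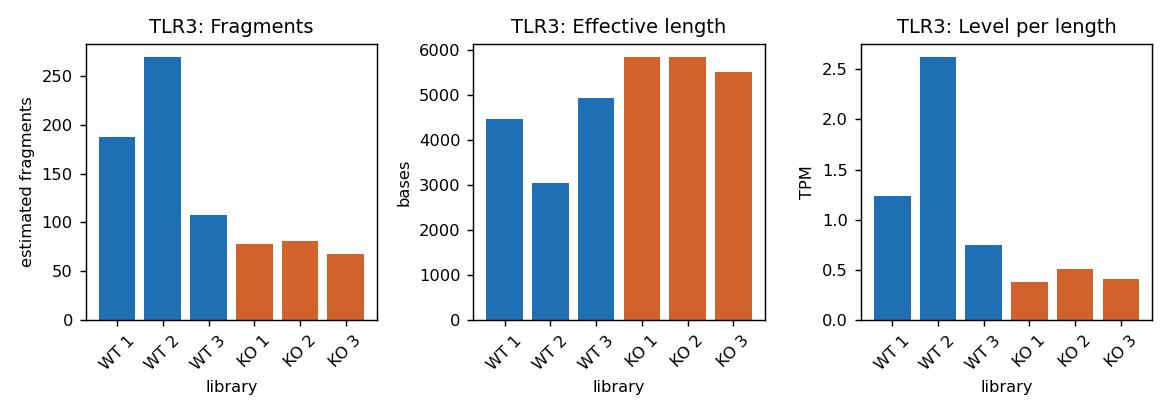
Estimated fragments, effective length in bases and TPM of the TLR3 gene row in each library, with WT bars in blue and ZNFX1 KO bars in orange. Fragments and TPM are highest in WT 2, and its effective length of 3056 bases is the shortest, against 5516 to 5851 bases in the KO libraries.

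Among transcripts listed apart from their gene row, several had most of their reads in WT 2. Those named here were chosen after their values were seen. IFIH1-206, a non-coding transcript of IFIH1 with 2795 bases, had 415 reads in WT 2 and 0 in each of the other 5 libraries. TLR3-205 had 68.3 reads in WT 2, 10.1 in WT 1 and 0 in the other 4. IFIH1-203, IFIH1-205 and TRIM25-205 also had most of their reads in WT 2, but few in all (6.4 of 8.7, 9.0 of 16.6 and 20.2 of 37.2). TRIM25-206 was highest there, with 206 reads against 49.8 to 91.2 in the other libraries. Not all such transcripts shared this. A protein-coding DHX58 transcript of 1283 bases had 21.6 reads in WT 1 and 22.1 in WT 2, and NLRX1-211 had 14.9 in WT 1 and 0 in WT 2. With such rows joined to their genes the log2 fold change was -2.22 for IFIH1 and -1.47 for TLR3, with edgeR adjusted p of 0.154 and 0.130.

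MAVS (ENSG00000088888.18, chromosome 20, 3846799 to 3876123, plus strand), the shared adaptor of RIG-I and MDA5, differed little. It stood at 100.3, 117 and 81.3 CPM in WT and at 82.6, 118 and 111 CPM in KO, so that the groups overlapped throughout. The fitted log2 fold change was 0.06 (SE 0.21; adjusted p = 0.905 by edgeR), a value whose sign turned with library totals alone (-0.0047), without WT 3 (-0.04) and without ZNFX1 KO 2 (-0.03). WT 2, the highest library for the sensors, was at 0.99 of the highest other library for MAVS.

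The regulators showed 3 patterns. TRIM25 (ENSG00000121060.19, chromosome 17, 56836387 to 56914080, minus strand) followed WT 2, with 98.4, 228 and 86.4 CPM in WT and 68.5, 102 and 102 CPM in KO. Its log2 fold change was -0.61 (SE 0.37; adjusted p = 0.453 by edgeR), and without WT 2 it was -0.03 (SE 0.22). The span of TRIM25, introns included, overlaps that of DGKE on the other strand by 33181 bases. Overlap of exons was not measured, and the counting is not stated to use strand. RNF135 (ENSG00000181481.14, chromosome 17, 30968785 to 30999911, plus strand), the other ligase that promotes RIG-I signalling, stayed within 20.1 to 28.4 CPM in WT and 18.1 to 24.4 CPM in KO (log2 fold change -0.22, SE 0.20; adjusted p = 0.613 by edgeR). It thus overlapped between the groups, with WT 2 only 1.15 times the next highest library.

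The other 3 regulators separated the groups without following WT 2. RNF125 (ENSG00000101695.9, chromosome 18, 32018372 to 32073213, plus strand) stood at 9.67, 8.76 and 7.87 CPM in WT and at 6.13, 6.53 and 5.22 CPM in KO. The WT libraries lay within 1.23-fold of each other and the KO libraries within 1.25-fold, and all KO values were lower. Its log2 fold change was -0.55 (SE 0.22; adjusted p = 0.293 by edgeR) with all libraries and also -0.55 (SE 0.25) without WT 2. RNF125 shares 54385 bases of its span, introns included, with AC011825.3 on the same strand, and overlap of exons was not measured.

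NLRX1 (ENSG00000160703.17, chromosome 11, 119166568 to 119184016, plus strand) stood at 26.5, 24.8 and 17.2 CPM in WT and at 14.7, 13.5 and 17.0 CPM in KO. WT 3 and KO 3 nearly met, and with the separately listed transcripts joined to the gene they crossed, at 16.0 and 16.3 CPM. The log2 fold change was -0.60 (SE 0.22; adjusted p = 0.269 by edgeR), and -0.53 (SE 0.25) without WT 2. NLRX1 was called in 1 of 18 alternatives, without WT 3 (edgeR adjusted p = 0.0440, range 0.0440 to 0.599).

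ZCCHC3 (ENSG00000247315.4, chromosome 20, 296968 to 300321, plus strand) was the 1 gene of the 10 that was higher in all KO libraries. It stood at 34.4, 31.1 and 38.3 CPM in WT and at 50.1, 51.0 and 54.8 CPM in KO, and WT 2 had the lowest level of all. The means were 34.6 ± 3.61 and 52.0 ± 2.47 CPM (SD, n = 3 each), the KO mean being 150.2% of the WT mean. The log2 fold change of 0.59 (SE 0.16) did not pass over all genes (edgeR adjusted p = 0.160) and was 0.52 (SE 0.17) without WT 2. ZCCHC3 was called in 2 of 18 alternatives, by the DESeq2 Wald test (adjusted p = 0.0409) and by edgeR without WT 3 (0.0413), within a range of 0.0409 to 0.500.

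**Figure D3:**
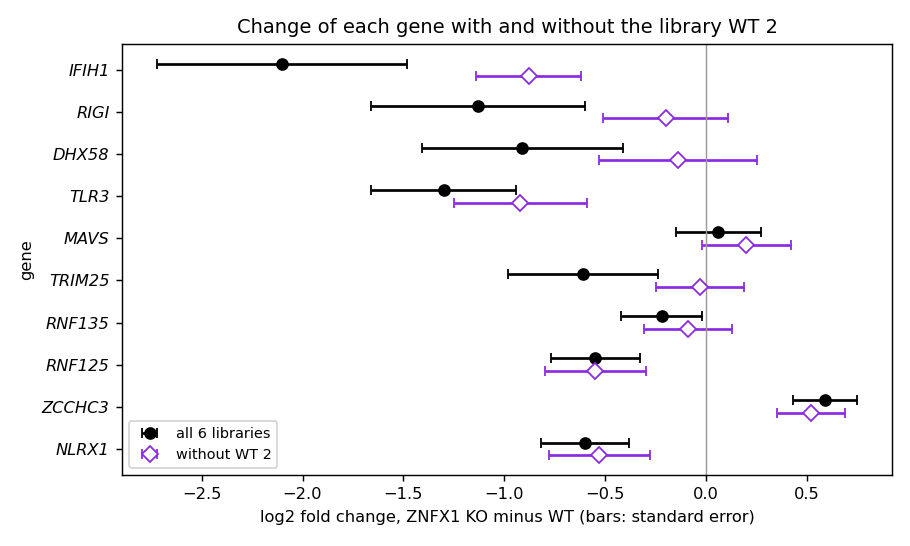
Log2 fold change of each gene, ZNFX1 KO minus WT, with its standard error, from all 6 libraries (black circles) and without WT 2 (open diamonds). IFIH1, RIGI, DHX58 and TRIM25 move toward 0 without WT 2, while RNF125 (-0.55), NLRX1 (-0.53) and ZCCHC3 (0.52) stay near their values from all libraries.

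The exact two-sided permutation test over the 6 libraries gave p = 0.1 for IFIH1, TLR3, RNF125, NLRX1 and ZCCHC3, the smallest p that 3 against 3 libraries allow. For the other 5 genes it gave 0.2 (DHX58) to 0.7 (MAVS). The same 5 genes were without overlap by TPM (17.0% of all tested genes), 5 genes were with library totals alone (20.3%), and 4 were, with NLRX1 no longer among them, with joined transcript rows (20.9%). Leaving out WT 1 (25.8%), WT 2 (24.5%), ZNFX1 KO 1 (32.7%) or ZNFX1 KO 3 (27.3%) also gave these 5 genes. Without ZNFX1 KO 2 there were 6, with DHX58 added (30.2%), and without WT 3 there were 7, with DHX58 and RNF135 added (48.9%), so those counts are read against a larger background. Without WT 2, 8 of the 10 genes had a negative log2 fold change, with a median of -0.17, against -0.0021 over all tested genes. For RIGI (-0.20), DHX58 (-0.14), RNF135 (-0.09) and TRIM25 (-0.03) the value was smaller in size than its SE.

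Levels were set against each other per transcript length, in TPM. In WT the order of the means was TRIM25 (15.3), IFIH1 (12.8), ZCCHC3 (8.64), RNF135 (8.20), MAVS (5.43), NLRX1 (4.09), RIGI (3.94), TLR3 (1.54), RNF125 (1.03) and DHX58 (0.783). The ranges of neighbours in this order overlapped at every step except from RNF135 to MAVS and from MAVS to NLRX1. In KO the order of the means was ZCCHC3 (13.1), TRIM25 (10.7), RNF135 (7.31), MAVS (5.92), IFIH1 (3.39), NLRX1 (2.71), RIGI (1.94), RNF125 (0.722), DHX58 (0.446) and TLR3 (0.433). There IFIH1 stood below MAVS in all 3 libraries, and the neighbours overlapped from ZCCHC3 to MAVS, from NLRX1 to RIGI and from DHX58 to TLR3. LGP2 mRNA was thus the scarcest of the RIG-I-like receptors in both groups.

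The balance within the receptor family was compared as ratios of TPM. MDA5 mRNA exceeded RIG-I mRNA in all libraries, 3.53, 3.60 and 1.99 times in WT and 1.47, 1.43 and 3.01 times in KO. These ratios overlapped between the groups (exact two-sided permutation test, p = 0.2). The ratio of IFIH1 to DHX58 was 14.6, 19.2 and 10.2 in WT and 8.33, 6.66 and 8.28 in KO, with no overlap (exact two-sided permutation test, p = 0.1). Of the summed TPM of the 3 receptors, IFIH1 made up 62.5% to 75.2% in WT and 54.1% to 68.8% in KO. The ratio of MAVS to RIGI was 0.812 in WT 2 and between 2.08 and 5.41 in the other libraries, so by TPM RIGI exceeded its adaptor only in WT 2. This rests on the effective lengths, 11563 bases for MAVS and 4486 for RIGI in WT 2. In CPM MAVS was above RIGI there too, at 117 against 55.9. These are 3 of 6 ratios computed, and the exact test cannot go below p = 0.1 for any of them.

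Likeness of pattern was measured as the root mean square difference between centred log2 CPM profiles over the 6 libraries, among protein-coding genes whose log2 CPM averaged 2 or more. The 5 nearest profiles to IFIH1 were those of BATF2 (0.13), MX1 (0.23), SP110 (0.31), HLA-B (0.31) and TRAF1 (0.33), against a median of 1.19 over 10050 genes. Near RIGI lay PARP9 (0.26), HERC6 (0.26), IFIT3 (0.29) and IFI44 (0.31). Near DHX58 lay TMEM62 (0.15), TDRD7 (0.17), PLA2G4C (0.18) and TVP23C-CDRT4 (0.19). TLR3 lay nearest to NOL4L (0.12), ZNF697, OTUD1, GADD45A and LRP1 (0.13 each). The neighbours of IFIH1 and RIGI include well-known interferon-stimulated genes (MX1, IFIT3). The 5 neighbours of TLR3 are not among the 25 tested genes of the interferon list. How many neighbours of the other sensors are on that list is not given here. Among the 10 genes themselves, DHX58 and TRIM25 were most alike (0.20), followed by RNF125 and NLRX1 (0.23).

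**Figure D4:**
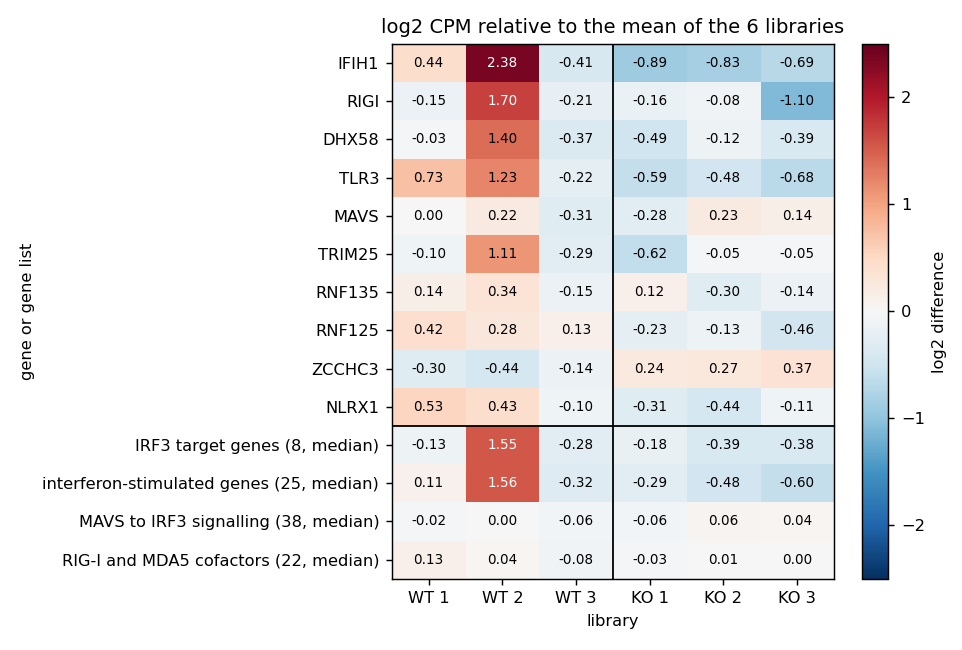
Log2 CPM of each gene relative to its mean over the 6 libraries, with the medians of 4 gene lists below the line, on a colour scale from blue (lower) to red (higher). WT 2 is at 2.38 for IFIH1 and 1.70 for RIGI, beside 1.56 for interferon-stimulated genes, while the medians of the cofactors lie between -0.08 and 0.13. A median can hide opposite shifts, and WT 2 is the highest library in 8 of the 22 cofactors and the lowest in 8.

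The proteins that act with these sensors were read from lists chosen by function. Of 22 tested cofactors of RIG-I and MDA5 (ubiquitin enzymes, phosphatases, chaperones), 0 passed by edgeR, against 0.727% of all tested genes. At an unadjusted p under 0.05 there were 4, against 15.1%. DESeq2 called 1, against 3.91% of genes with an adjusted p, and limma-voom 0, against 0.536%. The median log2 fold change was -0.02, with 12 negative, against 51.2% of all tested genes. In 1 of the 22 every KO library was lower than every WT library and in 2 higher, against 10.8% and 9.39% of all tested genes. The most abundant were PPP1CA and YWHAE. PPP1CA, a catalytic subunit of the phosphatase that acts on the sensors, was at -0.01 (SE 0.18), a value whose sign turned with several settings. YWHAE, the 14-3-3 epsilon chaperone of RIG-I, was at 0.40 (SE 0.21, adjusted p = 0.393 by edgeR). In CPM, but not in TPM, YWHAE was higher in every KO library than in every WT library. DDX60, a helicase described as a RIG-I cofactor and chosen after its values were seen, stood at 62.5, 139 and 35.3 CPM in WT and 27.5, 28.8 and 22.3 CPM in KO. Its log2 fold change was -1.59 (SE 0.43; adjusted p = 0.162 by edgeR), with WT 2 high and no overlap, and -0.90 (SE 0.26) without WT 2.

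Downstream of MAVS, 38 of 39 signalling genes were tested and 0 passed by edgeR, against 0.727% of all tested genes. At an unadjusted p under 0.05 there were 5, against 15.1%. DESeq2 called 0, against 3.91% of genes with an adjusted p, and limma-voom 0, against 0.536%. The median log2 fold change was -0.04 and 20 were negative, against 51.2% of all tested genes. In 2 of the 38 every KO library was lower than every WT library and in 5 higher, against 10.8% and 9.39% of all tested genes. TBK1, the kinase of both routes, stood at 35.3, 33.0 and 38.7 CPM in WT and 46.2, 41.7 and 39.7 CPM in KO (log2 fold change 0.25, SE 0.16; adjusted p = 0.469 by edgeR). IRF3 overlapped between the groups, with means of 32.4 ± 4.45 and 26.7 ± 6.57 CPM (SD, n = 3 each) and a log2 fold change of -0.28 (SE 0.22; adjusted p = 0.567 by edgeR). PCBP2, which takes MAVS to degradation, was at 0.23 (SE 0.17), and UBE2N, the ubiquitin-conjugating enzyme for lysine 63 chains, at 0.50 (SE 0.25). In CPM, but not in TPM, TBK1 and PCBP2 were higher in every KO library than in every WT library.

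In the TLR3 arm, 0 genes passed by edgeR, against 0.727% of all tested genes. In 4 of the 14 tested genes every KO library was lower than every WT library and in 0 higher, against 10.8% and 9.39% of all tested genes. UNC93B1, which carries TLR3 to endosomes, stood at 9.19, 13.9 and 5.20 CPM in WT and at 2.55, 3.46 and 3.94 CPM in KO, with no overlap. Its log2 fold change was -1.50 (SE 0.38; adjusted p = 0.136 by edgeR), and -1.10 without WT 2, and it was called in 3 of 18 alternatives. TICAM1, the adaptor of TLR3, averaged 17.9 ± 4.57 CPM in WT against 14.5 ± 1.82 CPM in KO (SD, n = 3 each; log2 fold change -0.30, SE 0.24; adjusted p = 0.561 by edgeR). Of the 14 tested genes of this arm among 16, 4 had an unadjusted p under 0.05, against 15.1% of all tested genes. DESeq2 called 2, against 3.91% of genes with an adjusted p, and limma-voom 0, against 0.536%. The median log2 fold change of the 14 genes was -0.26, with 11 negative, against 51.2% of all tested genes. Without WT 2 their median was -0.12 and 9 were negative. WT 2 was the highest library in 8 of the 14, as it was in 27.5% of all tested genes. The endosomal proteases CTSB and LGMN, the most abundant, were at -0.48 (SE 0.22) and -0.30 (SE 0.19). In CPM the groups did not overlap for CTSB and overlapped for LGMN. Of the other Toll-like receptors only 2 of 9 passed the filter, TLR6 at -0.84 (SE 0.33; adjusted p = 0.291 by edgeR) and TLR1 at -0.23 (SE 0.25; adjusted p = 0.675 by edgeR).

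Interferon mRNA was near absent in these untreated cells. IFNB1, the interferon that both routes induce, had 3, 1 and 0 reads in WT and 1, 1 and 2 reads in KO, and none of the interferon genes of the list passed the filter. Of the 8 tested IRF3 target genes, 0 passed by edgeR, against 0.727% of all tested genes. At an unadjusted p under 0.05 there were 3, against 15.1%. DESeq2 called 0, against 3.91% of genes with an adjusted p, and limma-voom 0, against 0.536%. All 8 had a negative log2 fold change (median -1.06), against 51.2% of all tested genes. WT 2 was highest in all 8, as it was in 27.5% of all tested genes. Without WT 2 the median was -0.19 and 5 were negative. ISG15, a ubiquitin-like modifier, and IFIT3, an antiviral protein, were the most abundant, at -1.86 (SE 0.63) and -1.20 (SE 0.52), and at -0.71 and -0.18 without WT 2.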

How the data were processed

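For each library the authors deposited Salmon output, per the labels: estimated counts, TPM and effective lengths, 1 row per gene or transcript; FastQC, Trimmomatic and DESeq2 are also named in the submitters' processing notes. Which build, annotation and strand setting were used is not given in the sources used here. Each file has 62260 gene rows and 134909 transcript rows; the latter, with 9.93% to 10.73% of fragments, entered no test except an alternative that joined 103521 of them to their gene. Coordinates are those of GENCODE 29 (GRCh38).

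Counts were rounded to whole numbers, filtered with filterByExpr (14166 genes), scaled by TMM (factors 0.958 to 1.0441) and tested with edgeR 4.0.16 (quasi-likelihood, two-sided, R 4.3.3), in a model of genotype alone, and p-values were adjusted by Benjamini-Hochberg across the genes that passed the filter. Standard errors are the log2 fold change over the square root of F. Centred profiles use log2 CPM with a prior count of 2. The test was checked on simulated counts. Alternatives used limma 3.58.1 and DESeq2 1.42.0.

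The 10 genes and 11 lists were chosen with earlier results of these data known. By rule the text names all 10, ZNFX1, TICAM1, UNC93B1, IRF3, TBK1 and IFNB1, and the called genes of each list or, where none was called, its 2 most abundant; other genes are said to be chosen afterwards. Of the 5 genes most like RIGI and of the 5 most like DHX58, 1 each is not reported here. Epithelial and leukocyte markers served only as a check of the cells, and those named were chosen after their values were seen. Libraries differed by more than sampling noise, so none was counted as a duplicate.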

Additional observations from a re-analysis of the deposited data

How the results depend on the processing

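Results were recomputed under 18 alternatives. Of the 10 genes, 9 kept their direction in all 18 and MAVS in 15. The number of genes called over the whole table was 103, and 602 without a filter on low counts, 596 with DESeq2, 48 and 66 with limma on log2(TPM + 1) and log2(TPM + 0.1), and 187 with joined transcript rows. Called among the 10 were 0, but 2 without a filter (IFIH1 and TLR3) and 2 with DESeq2. Leaving out single libraries gave 2 (without ZNFX1 KO 2) to 1315 (without WT 3) called genes, with 24 without WT 1 and 7 without ZNFX1 KO 3, and 0 to 4 called among the 10 (IFIH1, TLR3, NLRX1 and ZCCHC3 without WT 3). Their median log2 fold change ranged from -0.79 to -0.17, the latter without WT 2. The cause of these shifts was not tested. The number of genes among the 10 whose groups did not overlap, recomputed after the data were seen, was 5 to 7 without single libraries, 5 by TPM and 4 with joined rows. MAVS turned sign with library totals alone (-0.0047), without WT 3 (-0.04) and without ZNFX1 KO 2 (-0.03), within -0.04 to 0.21 without single libraries. PPP1CA turned sign without a filter (0.01), with DESeq2 (0.01), with both TPM settings (0.02 each), and without WT 3 (0.10), ZNFX1 KO 1 (0.03) or ZNFX1 KO 2 (0.08), within -0.12 to 0.10 without single libraries. With the replicate number as a block, 14 genes were called in all and 0 of the 10. Same-numbered libraries deviated together with correlations across genes of 0.129, -0.0405 and 0.00691, so the numbers were not taken to pair them. The low read counts of DHX58 and TLR3 limit what their values can resolve.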

Other observations

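Among the interferon-stimulated genes set beside the sensors, 25 of 30 were tested. All 25 had a negative log2 fold change (median -1.14), against 51.2% of all tested genes. By edgeR 0 passed, against 0.727%, and 16 had an unadjusted p under 0.05, against 15.1%. DESeq2 called 2, against 3.91% of genes with an adjusted p, and limma-voom 0, against 0.536%. Without a filter on low counts edgeR called 8, against 2.11%, and without WT 3 it called 11, against 9.02%. WT 2 was the highest library in all 25, as it was in 27.5% of all tested genes. Their summed level was 1904, 4800.5 and 1492 CPM in WT and 1664, 1246 and 1151 CPM in KO. OAS2, an antiviral enzyme, and IFI6, an interferon-inducible membrane protein, were the most abundant, at -0.65 (SE 0.41; adjusted p = 0.477 by edgeR) and -2.11 (SE 0.63; adjusted p = 0.193 by edgeR), and at -0.19 and -1.01 without WT 2. Without WT 2 the median was -0.44 and 22 were negative.

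The genes SRC and TRAF6 were chosen after their values were seen. SRC, a kinase that binds TLR3, stood at 16.5, 25.2 and 9.64 CPM in WT and at 6.21, 6.24 and 7.14 CPM in KO (log2 fold change -1.39, SE 0.33; adjusted p = 0.123 by edgeR, called in 3 of 18 alternatives, adjusted p from 0.00626 to 0.407). TRAF6, a ubiquitin ligase shared by both routes, stood at 52.8, 42.9 and 62.9 CPM in WT and at 77.5, 88.3 and 79.7 CPM in KO (log2 fold change 0.63, SE 0.18; adjusted p = 0.183 by edgeR, called in 1 of 18 alternatives).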
